A study of Mus musculus with 2 samples.

Results

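The fatty acid uptake genes of heart capillaries described here were 9 genes taken as a list: Cd36, Fabp4, Fabp5, Lpl, Gpihbp1, Meox2, Tcf15, Pparg and Aqp7. All 9 were present in both count tables, among 21745 genes that the tables shared. They were followed in cells gated by marker genes as endothelial cells, macrophages, fibroblasts and mural cells (pericytes and smooth muscle cells), with lymphocytes as a class that should lack most of them. None of the 9 was a gate marker.

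The series profiled hearts of male C57BL6/J mice, 8 to 10 weeks old, by Drop-seq, in which droplets give the mRNA molecules of each cell a shared barcode and each molecule an identifier (UMI). One group had the left anterior descending coronary artery ligated (MI) and the other had sham surgery, and both were sampled on day 14. A single heart gave the MI library, whereas 4 hearts were pooled for the sham library. With 1 library per group, no difference below had a replicate check, no test between conditions was possible, and the surgery cannot be told apart from the library or the animals.

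The working heart burns mainly fatty acids, which reach it as triglyceride in lipoproteins or bound to albumin. Lipoprotein lipase (Lpl) is secreted by parenchymal cells and is carried across the capillary wall and held on its luminal face by Gpihbp1. The fatty acids it frees pass the endothelium with the help of the membrane protein Cd36 and the cytosolic binding proteins Fabp4 and Fabp5. Meox2 and Tcf15 are transcription factors known to act as a pair in heart capillary endothelium to maintain Cd36 and Lpl expression there. Pparg is a nuclear receptor that drives Fabp4, Cd36 and Aqp7 in fat and endothelium, and Aqp7 is a channel for glycerol and water.

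Promoter sequences of RefSeq (build GRCm38.p6, 250 bases before to 50 bases after an annotated start) were matched for 4 of the 9 genes, namely Cd36, Aqp7, Meox2 and Pparg. The windows of Cd36 and Aqp7, 2 of the genes with the widest gaps between the libraries, and of Meox2, one of the transcription factors, are shown so that the sequence stands beside the values. Capitals mark the E-box CANNTG, the kind of motif that basic helix-loop-helix factors such as Tcf15 recognise, and the nuclear receptor core AGGTCA, which reads TGACCT on the other strand. The Cd36 window is chr5:17835847-17836146 (minus strand), inside the annotated span of the gene, the Aqp7 window is chr4:41048087-41048386 (minus strand), and the Meox2 window is chr12:37108290-37108589 (plus strand). Each is written 5′ to 3′ on the strand of its gene.
Cd36: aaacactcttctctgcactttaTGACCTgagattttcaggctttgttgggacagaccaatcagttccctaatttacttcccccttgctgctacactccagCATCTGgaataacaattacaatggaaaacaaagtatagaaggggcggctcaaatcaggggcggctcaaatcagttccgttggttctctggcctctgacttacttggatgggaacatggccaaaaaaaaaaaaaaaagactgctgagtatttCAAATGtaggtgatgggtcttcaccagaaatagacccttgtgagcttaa
Aqp7: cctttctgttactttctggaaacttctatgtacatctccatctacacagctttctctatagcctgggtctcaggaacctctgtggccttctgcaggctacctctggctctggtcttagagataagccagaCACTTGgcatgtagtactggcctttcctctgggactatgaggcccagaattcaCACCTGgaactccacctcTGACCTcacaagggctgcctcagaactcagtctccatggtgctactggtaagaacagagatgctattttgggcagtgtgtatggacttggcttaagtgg
Meox2: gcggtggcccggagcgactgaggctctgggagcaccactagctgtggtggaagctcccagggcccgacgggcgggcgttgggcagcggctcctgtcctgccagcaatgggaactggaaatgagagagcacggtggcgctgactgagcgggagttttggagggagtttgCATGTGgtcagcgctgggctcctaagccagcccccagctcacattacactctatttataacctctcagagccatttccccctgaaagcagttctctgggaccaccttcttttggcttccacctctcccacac
The Cd36 window held 2 E-boxes and 1 AGGTCA core, the printed Aqp7 window 2 E-boxes and 1 core, and the Meox2 window 1 E-box and no core. A second Aqp7 window, chr4:41047913-41048212, held 3 E-boxes and 2 cores and is not printed. Among 32851 promoters of the same length, 72.3% held an E-box and 16.3% an AGGTCA core on either strand, so both motifs are common. A direct repeat of the core spaced by 1 base (AGGTCANAGGTCA, either strand), present in 0.0396% of all promoters, was in none of the 7 windows of these 4 genes, nor was the homeobox core TAATTA, present in 5.29%. The matches describe these letters only.

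The MI library held 33275336 UMIs in 8555 barcodes and the sham library 11307405 UMIs in 6337 barcodes, and 5 barcodes occurred in both. Filters on mitochondrial UMIs and doublets left 8294 MI and 5969 sham cells. The gates took 395 MI and 2015 sham endothelial cells (4.76% and 33.8% of kept cells), 3858 and 1421 macrophages, 2921 and 1845 fibroblasts, 115 and 123 mural cells, and 161 and 48 lymphocytes, while 844 and 517 cells stayed ungated. Median depth differed between the libraries, at 2968 UMIs per MI and 1291 per sham endothelial cell, 1706.5 and 1368 per macrophage, 5403 and 1498 per fibroblast, 5482 and 1195 per mural cell, and 1246 and 1287.5 per lymphocyte. Levels are therefore given as CPM, the UMIs of a gene per 1000000 UMIs summed over the cells of a class, and shares of cells after thinning to 500 UMIs per cell, a number every kept cell reached. All intervals are 95% intervals and cover counting error only.

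All 12 endothelial markers were detected in the endothelial gate of both libraries, with a summed level of 6677 CPM in MI and 7926 CPM in sham. Single markers differed, since Cldn5, a tight junction protein of the endothelium, stood at 42.7 CPM in MI and 287 CPM in sham, and Emcn, a sialomucin of veins and capillaries, at 1285 and 374 CPM. Markers of other cells differed as well: the 12 fibroblast markers summed to 699 CPM in MI and 188 CPM in sham endothelial cells (11 of 12 and 12 of 12 detected, Tcf21 at 0 in MI), and the 12 mural markers to 92.2 and 297 CPM (9 and 12 detected, with Vtn, Myh11 and Steap4 at 0 in MI). The 5 erythroid markers, all detected in both, summed to 19.0 CPM in MI and 737 CPM in sham, and the 10 cardiomyocyte markers to 27.1 and 98.1 CPM (5 and 10 detected). Their part in the results was not tested beyond the alternatives named below.

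In gated endothelial cells, 8 of the 9 genes were at least 2-fold lower in the MI library and none was at least 2-fold higher. Among all 11353 genes with at least 20 UMIs in that class, 14.0% were at least 2-fold lower and 10.9% at least 2-fold higher. The median log2 ratio of MI over sham was -2.98 over the 9 genes, all of which had at least 20 UMIs, and -0.04 over all genes tested. The gaps ran from the glycerol channel Aqp7 at the wide end to Fabp5 at the narrow end, as the plot of levels by class shows.

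**Figure D1:**
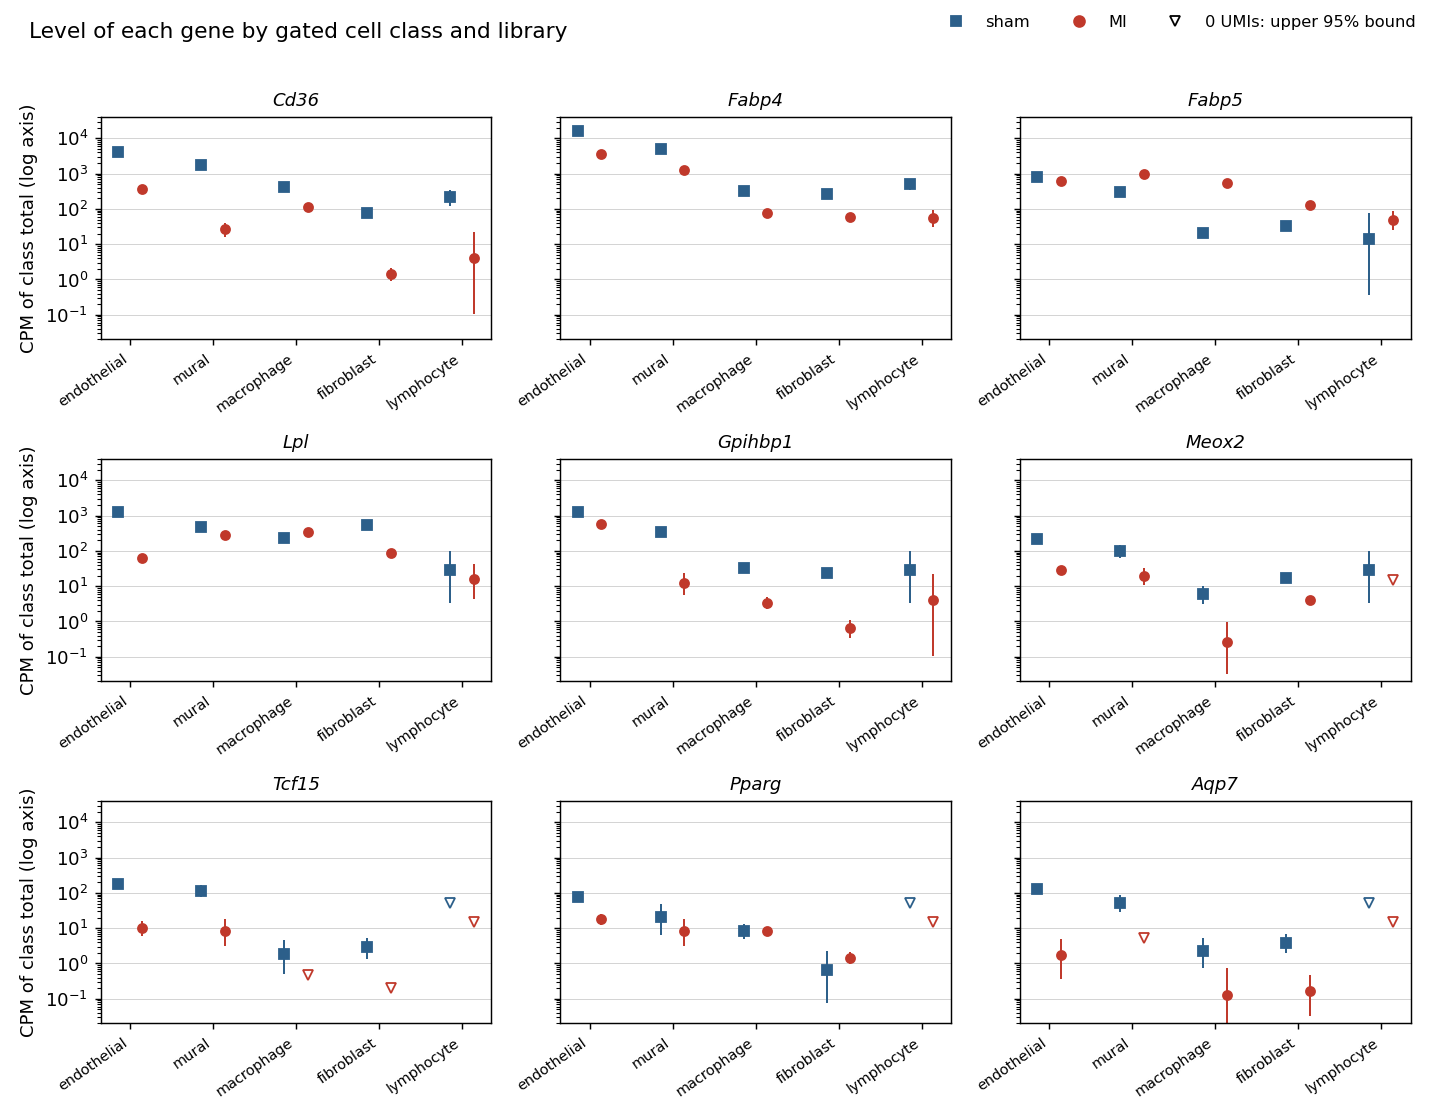
Level of each of the 9 genes (CPM of the class total, log axis) in 5 gated cell classes, for the sham library (squares) and the MI library (circles). Bars are exact Poisson 95% intervals, and open triangles mark the upper bound where a class held 0 UMIs. In endothelial cells the MI circle lies below the sham square for all 9 genes, whereas in macrophages and fibroblasts the Fabp5 circle lies above its square.

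Lpl (chr8:68880491-68907448, plus strand) is the lipase itself, and its order of cell classes differed between the libraries. Endothelial cells held 4640 Lpl UMIs in sham and 112 in MI, or 1272 CPM (1235 to 1309) against 64.6 CPM (53.2 to 77.7). This was a log2 ratio of -4.30 (-4.58 to -4.03), 19.7-fold lower in MI. A Lpl UMI was seen in 44.1% of thinned sham endothelial cells and 3.80% of thinned MI endothelial cells (68.1% and 13.7% unthinned). Among lymphocytes it was seen in 0 of 48 sham and 0 of 161 MI cells, with exact binomial intervals that reach 7.40% and 2.27%. Endothelial cells stood first among the classes in sham, followed by fibroblasts at 547 CPM and mural cells at 473 CPM, whose intervals overlapped, and macrophages at 239 CPM. In MI the order was different, with macrophages at 349 CPM, mural cells at 277, fibroblasts at 84.8 and endothelial cells at 64.6, and no neighbouring intervals overlapped. Of all Lpl UMIs in kept cells, endothelial cells held 59.3% in sham and 2.27% in MI, while macrophages held 6.76% in sham and 54.3% in MI. These shares combine the level per cell with the number of cells of each class.

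Gpihbp1 (chr15:75596628-75599481, plus strand), the endothelial anchor of the lipase, kept to endothelial cells in both libraries. Endothelial cells held 4679 of 5737 Gpihbp1 UMIs in sham (81.6%) and 999 of 1162 in MI (86.0%). Its endothelial level was 1283 CPM (1246 to 1320) in sham and 576 CPM (541 to 613) in MI, a log2 ratio of -1.16 (-1.26 to -1.06), 2.23-fold lower. A UMI was seen in 44.4% of thinned sham and 24.8% of thinned MI endothelial cells, and in 1 of 48 sham and 0 of 161 MI lymphocytes. This gap was the narrowest but for Fabp5 and lay under 2-fold in some settings, at -0.82 with a stricter gate, -0.84 after thinning, -0.49 without lymphatic, arterial and endocardial cells, and -0.32 in the 102 MI and 1018 sham cells without any marker UMI of another class. For each Gpihbp1 UMI, endothelial cells held 0.992 Lpl UMIs (0.952 to 1.03) in sham and 0.112 (0.0914 to 0.136) in MI, so the lipase was lower than its anchor.

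Cd36 (chr5:17781690-17888801, minus strand), the fatty acid translocase whose promoter window is printed above, had 15166 UMIs in sham and 625 in MI endothelial cells. The levels were 4157 CPM (4091 to 4224) and 360 CPM (333 to 390), a log2 ratio of -3.53 (-3.65 to -3.41), 11.5-fold lower in MI. The share of thinned endothelial cells with a Cd36 UMI was 78.8% (77.0% to 80.6%) in sham and 13.7% (10.4% to 17.5%) in MI, against 8.33% and 0% of lymphocytes. The gap held across the range of cells: per 10000 UMIs of a cell, the median sham endothelial cell had 40.4 and the median MI cell had 0, and the 90th percentile was 86.0 in sham and 15.0 in MI. Endothelial cells held 78.1% of all Cd36 UMIs in sham, and in MI macrophages held more (52.3%) than endothelial cells (38.2%).

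Fabp4 and Fabp5 encode closely related binding proteins from neighbouring genes on chromosome 3, with 187 kb between the end of Fabp5 (chr3:10012548-10016607, plus strand) and the lower end of Fabp4 (chr3:10204088-10208576, minus strand). Fabp4 stood at 15819 CPM (15690 to 15949) in sham and 3720 CPM (3630 to 3812) in MI endothelial cells, 4.25-fold lower, with a log2 ratio of -2.09 (-2.13 to -2.05). Fabp5 stood at 807 CPM (779 to 837) in sham and 625 CPM (589 to 664) in MI endothelial cells, a log2 ratio of -0.37 (-0.47 to -0.27), under the 2-fold mark. The pair therefore parted: endothelial cells held 19.6 Fabp4 UMIs per Fabp5 UMI (18.9 to 20.3) in sham and 5.95 (5.58 to 6.35) in MI. In the other classes the ratio also differed between the libraries, and macrophages held 15.5 Fabp4 UMIs per Fabp5 UMI (11.5 to 21.5) in sham and 0.141 (0.129 to 0.153) in MI, and fibroblasts held 8.07 (6.58 to 9.98) and 0.459 (0.426 to 0.493). Lymphocytes held 35 Fabp4 UMIs and 1 Fabp5 UMI in sham (a ratio between 5.88 and 1421). In MI they held 1.17 Fabp4 UMIs per Fabp5 UMI (0.501 to 2.76), so the ratio differed in this class as well. Whether these UMIs were background RNA or the cells' own was not tested. In sham macrophages both genes lay at or below the lymphocyte level or within its interval, with Fabp5 at 20.3 CPM beside 14.1 CPM. The Fabp5 value in endothelial cells depended on the cells taken, at -1.32 without lymphatic, arterial and endocardial cells and -1.22 without cells holding a marker UMI of another class.

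Aqp7 (chr4:41033074-41048139, minus strand), the glycerol channel, had 458 UMIs in sham and 3 UMIs in MI endothelial cells. The levels were 126 CPM (114 to 138) and 1.73 CPM (0.357 to 5.05), a ratio of 72.6-fold lower with an interval of 24.7-fold to 353-fold. In thinned cells a UMI was seen in 5.91% of sham and 0 of 395 MI endothelial cells, with an exact binomial interval that reaches 0.930%. Without thinning, a UMI was seen in 17.2% of sham and 0.759% of MI endothelial cells, the latter being 3 cells. Endothelial cells held 80.6% of the 568 Aqp7 UMIs of the sham library, and the whole MI library held 7. The adipocyte markers Adipoq, Plin1, Cfd, Retn and Pck1, which would accompany Aqp7 in fat cells, gave 5 UMIs in sham endothelial cells, with Cfd at 0, and 0 UMIs in MI endothelial cells. Their part in the Aqp7 levels was not tested.

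The transcription factors were sparse, and their ratios have wider intervals. Meox2 (chr12:37108540-37179534, plus strand), a homeobox factor, had 812 UMIs in sham and 49 in MI endothelial cells, or 223 CPM (208 to 238) and 28.2 CPM (20.9 to 37.3). Its log2 ratio was -2.98 (-3.43 to -2.56), 7.88-fold lower. Tcf15 (chr2:152143561-152149097, plus strand), its basic helix-loop-helix partner, had 644 and 18 UMIs, or 177 CPM (163 to 191) and 10.4 CPM (6.15 to 16.4), a log2 ratio of -4.09 (-4.85 to -3.42). Both were thus lower in MI by more than the binding protein Fabp4. Pparg (chr6:115360951-115490399, plus strand), the nuclear receptor, had 271 and 31 UMIs, or 74.3 CPM (65.7 to 83.7) and 17.9 CPM (12.1 to 25.4), a log2 ratio of -2.06 (-2.64 to -1.52). It lay under 2-fold, at -0.96, without cells holding a marker UMI of another class.

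**Figure D2:**
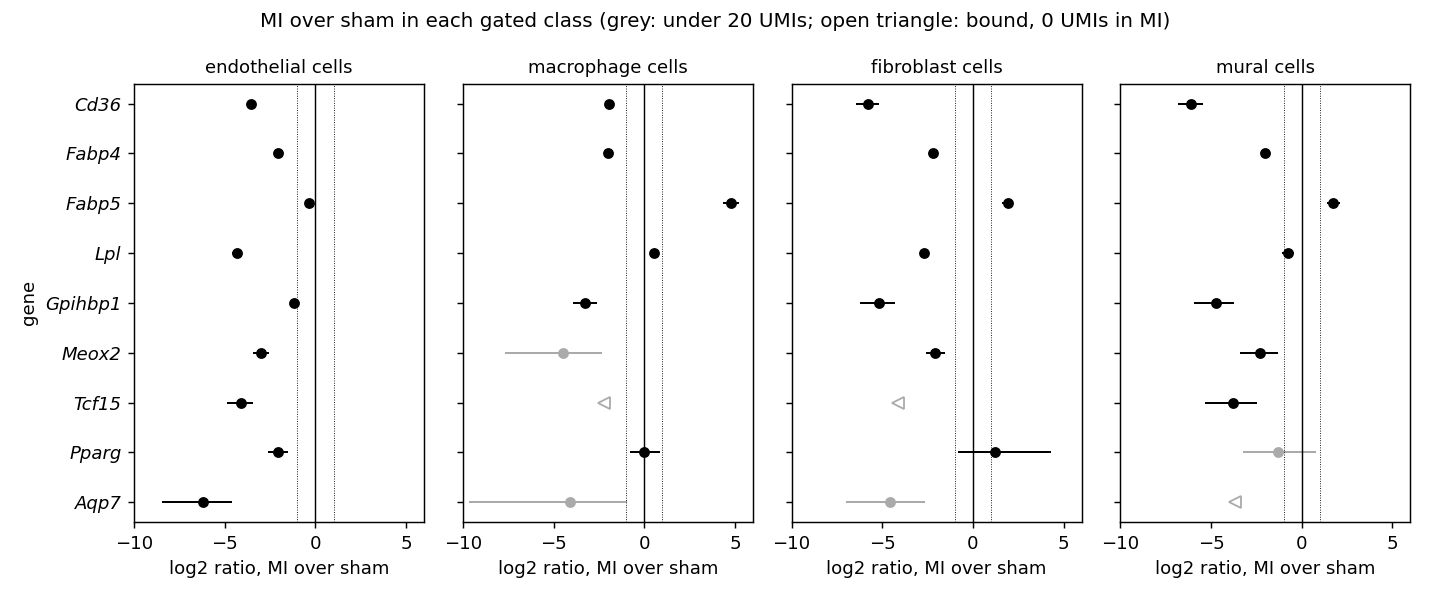
Log2 ratio of MI over sham for each of the 9 genes in 4 gated cell classes, with exact conditional 95% intervals that cover counting error only. Dotted lines mark 2-fold, grey points have under 20 UMIs over both libraries, and an open triangle marks a bound for 0 UMIs in MI. In endothelial cells every point but Fabp5 lies left of the lower dotted line, and Fabp5 lies right of the upper one in the other 3 classes.

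Within single sham endothelial cells the factors were set beside Cd36, Gpihbp1 and Lpl by whether a UMI was seen at 500 UMIs per cell. Of the 157 sham cells with a Tcf15 UMI, 93.0% (87.8% to 96.5%) had a Cd36 UMI, beside 77.6% (75.6% to 79.5%) of the 1858 cells without one. For Gpihbp1 the shares were 58.6% (50.5% to 66.4%) and 43.2% (40.9% to 45.5%), whose intervals did not overlap. For Lpl they were 49.7% and 43.6%, with overlapping intervals. Of the 189 cells with a Meox2 UMI, 84.1% (78.1% to 89.0%) had a Cd36 UMI, beside 78.3% (76.3% to 80.1%) without, and 51.9% and 43.3% had a Lpl UMI, again with overlapping intervals for both genes. Gpihbp1 did not differ by Meox2, at 44.4% (37.2% to 51.8%) with and 44.4% (42.1% to 46.7%) without a Meox2 UMI. Meox2 and Tcf15 themselves were seen together in 9 cells, which is 5.73% (2.65% to 10.6%) of the cells with a Tcf15 UMI, beside 9.69% (8.38% to 11.1%) of the cells without one, with overlapping intervals. These cells come from 1 library and are not replicates, and in MI only 7 cells had a Meox2 UMI and 3 a Tcf15 UMI, too few to compare. The sham cells were pooled over the endothelial subsets read below. In sham, endocardial and lymphatic cells were low in Tcf15 (15.6 and 17.8 CPM, from 5 and 2 UMIs) and in Cd36 (906 and 757 CPM). Capillary cells held 199 CPM of Tcf15 and 4643 CPM of Cd36. The part of this makeup in the shares was not tested.

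The number of the 9 genes seen per cell was also lower in MI. At 500 UMIs per cell, sham endothelial cells showed a mean of 3.17 of the 9 genes and MI endothelial cells 1.23. None of the 9 was seen in 3.82% of sham and 27.1% of MI endothelial cells, and 4 or more were seen in 42.6% and 4.30%. For comparison, lymphocytes showed a mean of 0.229 in sham and 0.0497 in MI.

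**Figure D3:**
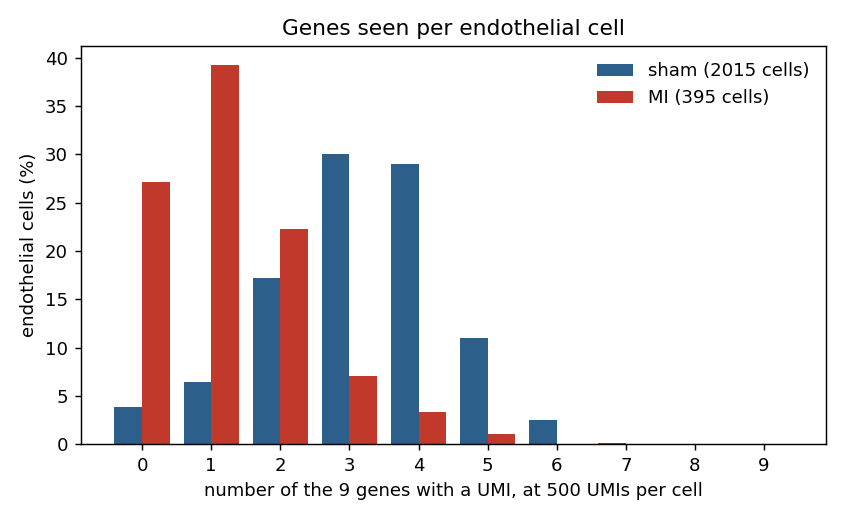
Share of gated endothelial cells (%) by the number of the 9 genes with at least 1 UMI, after every cell was thinned to 500 UMIs, in the sham library (2015 cells) and the MI library (395 cells). Sham cells gather at 3 and 4 genes and MI cells at 0 to 2.

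The endothelial class itself differed in makeup between the libraries, so the genes were read in subsets of it. A cell joined a subset when it held UMIs of at least 2 of that subset's markers, and this depends on depth. The 8 capillary markers, among them Car4, Rgcc and Btnl9, were all lower in MI endothelial cells, with log2 ratios from -6.78 for Slc28a2 to -2.34 for Rgcc, and their sum was 273 CPM in MI and 3488 CPM in sham. Arterial markers summed to 1308 and 738 CPM, endocardial markers to 1137 and 607 CPM, and venous markers to 818 and 304 CPM, each sum higher in MI, while lymphatic markers summed to 417 and 971 CPM. Single markers went against these sums, such as the endocardial Cytl1 (-2.73), the arterial Hey1 (-0.49) and Stmn2 (-0.38), and the lymphatic Prox1 (1.37), and Hapln1 had 0 UMIs in MI. Of the endothelial cells, 62 of 395 in MI (15.7%) and 1563 of 2015 in sham (77.6%) held 2 capillary markers, and at 500 UMIs per cell 6 (1.52%) and 925 (45.9%) did.

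In cells with 2 capillary markers and no pair of another subset's markers, a choice made after seeing the data that left 24 MI and 1178 sham cells, the genes separated. Gpihbp1 was 2112 CPM (1767 to 2505) in MI against 1547 CPM (1492 to 1603) in sham, for a log2 ratio of 0.45 (0.19 to 0.70) in favour of MI. The thinned shares of these cells with a Gpihbp1 UMI overlapped, at 50.0% (29.1% to 70.9%) in MI and 51.5% (48.6% to 54.4%) in sham. Fabp4 was 14594 CPM in MI and 17923 CPM in sham, a log2 ratio of -0.30 (-0.39 to -0.20). Fabp5 was 656 and 748 CPM, with an interval of the log2 ratio from -0.67 to 0.26. In those capillary cells, then, the anchor and the binding proteins lay within 2-fold of sham. Cd36 was 2144 CPM (1797 to 2540) against 4834 CPM (4737 to 4932), a log2 ratio of -1.17 (-1.43 to -0.93). Lpl was 304 CPM (183 to 475) against 1486 CPM (1433 to 1541), a log2 ratio of -2.29 (-3.02 to -1.64). The lipase and the translocase thus stayed lower in MI among capillary cells, while Meox2 with 4 MI UMIs (-1.98, -3.86 to -0.61), Tcf15 with 5 (-1.42, -3.05 to -0.19), Pparg with 3 (-0.90, -3.19 to 0.67) and Aqp7 with 3 (-1.46, -3.75 to 0.10) had too few UMIs for a narrow interval. With all 62 MI and 1563 sham cells holding 2 capillary markers, the log2 ratios were 0.09 (-0.04 to 0.22) for Gpihbp1, -2.12 for Cd36 and -2.81 for Lpl, and Fabp4 stood at 8754 CPM (8452 to 9065) in MI against 17465 CPM (17316 to 17616) in sham.

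Outside the capillary cells Cd36, Fabp4, Lpl and Gpihbp1 had lower levels than in capillary cells of the same library in the arterial, venous and endocardial subsets. Cd36, Fabp4 and Lpl were also lower in MI there. In arterial cells without 2 capillary markers (179 MI and 78 sham cells), Cd36 was 118 CPM in MI and 1429 CPM in sham, and Lpl 33.2 and 311 CPM. In venous cells (116 and 80), Cd36 was 106 and 911 CPM. The log2 ratio of Fabp4 was -1.47 in arterial, -1.65 in venous and -1.77 in endocardial cells, each over 2-fold lower in MI, whereas in lymphatic cells it was 1.29 (0.61 to 2.02), from 77 and 24 UMIs. Gpihbp1 did not separate in these subsets, with log2 ratios of 0.13 (-0.38 to 0.68) in arterial and -0.37 (-1.01 to 0.31) in venous cells. Fabp5, at 748 CPM in sham and 656 CPM in MI capillary cells, was 1012 and 803 CPM in arterial cells and 1475 and 893 CPM in venous cells. The MI intervals of arterial (749 to 859) and venous cells (824 to 966) overlapped that of capillary cells (471 to 890). Endocardial cells, which line the chambers, had Fabp5 at 1905 CPM (1733 to 2090) in sham and 1115 CPM (1040 to 1193) in MI, and Gpihbp1 at 29.8 and 29.4 CPM. Whether subsets called at such different depths hold the same cells was not tested.

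**Figure D4:**
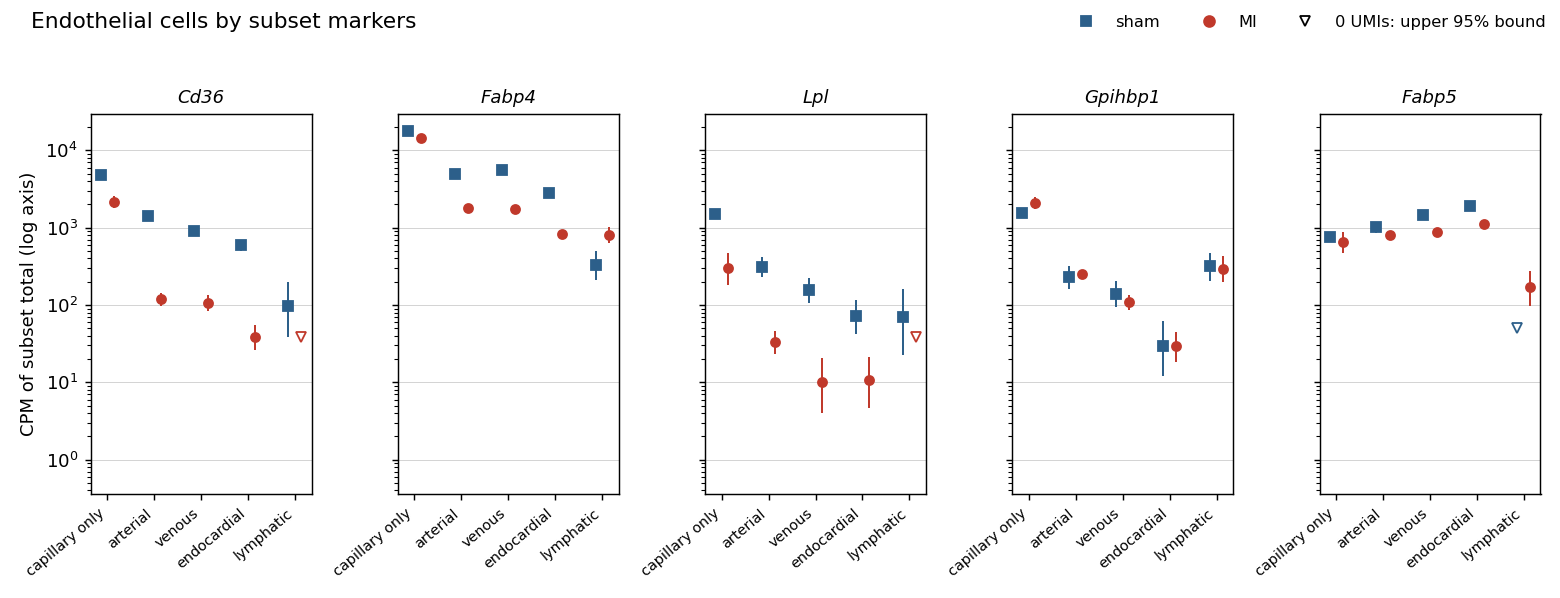
Level (CPM of the subset total, log axis) of 5 genes in endothelial cells holding 2 markers of 1 subset, for sham (squares) and MI (circles), with exact Poisson 95% intervals and open triangles for the upper bound where 0 UMIs were found. Capillary cells hold no other subset's marker pair and the other subsets no capillary pair. Gpihbp1 lies within 2-fold between the libraries in every subset drawn, and Cd36 and Lpl lie lower in MI in capillary, arterial, venous and endocardial cells.

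In macrophages, 6 of the 9 genes had at least 20 UMIs, 3 were at least 2-fold lower and 1 at least 2-fold higher in MI, beside 12.0% and 9.18% of the 11721 genes tested in that class. The higher one was Fabp5, a binding protein known from macrophages as well as endothelium, at 560 CPM (543 to 577) in MI against 20.3 CPM (14.8 to 27.2) in sham. Its log2 ratio was 4.78 (4.36 to 5.24), 27.6-fold higher in MI. A Fabp5 UMI was seen in 15.9% of thinned MI and 1.27% of thinned sham macrophages, beside 2.48% and 0% of lymphocytes. Macrophages held 43.3% of all Fabp5 UMIs in the MI library, and endothelial cells 10.9%. Lpl, which macrophages are known to secrete, was 349 CPM (336 to 362) in MI against 239 CPM (219 to 260) in sham, for a log2 ratio of 0.55 (0.41 to 0.68), under 2-fold. A Lpl UMI was seen in 9.90% (8.98% to 10.9%) of thinned MI and 9.15% (7.70% to 10.8%) of thinned sham macrophages, with overlapping intervals. Pparg was 8.20 and 8.13 CPM, with an interval of the log2 ratio from -0.76 to 0.86.

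Cd36, which is also a scavenger receptor of macrophages, was 111 CPM (104 to 119) in MI against 433 CPM (406 to 461) in sham macrophages, a log2 ratio of -1.96 (-2.09 to -1.82). Lymphocytes stood at 4.08 CPM in MI and 212 CPM (119 to 350) in sham, so part of the sham level is matched by cells that should lack the gene. After the lymphocyte level of each library was subtracted, the log2 ratio was -1.04. This value has no interval, and the subtracted levels rest on 1 MI and 15 sham lymphocyte UMIs, so it is uncertain. Fabp4 was at 78.7 CPM in MI and 315 CPM in sham macrophages, beside 57.1 CPM (31.2 to 95.8) and 495 CPM (345 to 689) in lymphocytes, so its sham level is read as background. In MI the level lay within the lymphocyte interval, but macrophages held 605 Fabp4 UMIs where their endothelial marker level would give 209, and 23.3 per Gpihbp1 UMI (15.7 to 35.9) beside 6.46 (6.04 to 6.91) in endothelial cells. Gpihbp1 is read as background in both libraries, at 3.38 and 32.1 CPM beside 4.08 and 28.3 CPM in lymphocytes.

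Because Gpihbp1 marks endothelial RNA, each gene was also set against it in the same class. In sham, Cd36 gave 3.24 UMIs per Gpihbp1 UMI (3.14 to 3.35) in endothelial cells and 3.23 (2.48 to 4.24) in fibroblasts, but 13.5 (10.6 to 17.4) in macrophages. Fabp4 gave 12.3 in endothelial cells, 11.3 (8.91 to 14.5) in fibroblasts and 9.83 (7.69 to 12.7) in macrophages. The sham fibroblasts thus held Cd36 and Fabp4 in the endothelial proportion, and the sham macrophages held Cd36 well above it. Sham lymphocytes gave 7.5 Cd36 UMIs per Gpihbp1 UMI, with an interval (1.74 to 67.6) that covers the macrophage value. Cardiomyocyte markers summed to 214 CPM in sham macrophages, 98.1 CPM in sham endothelial cells and 55.2 CPM in sham fibroblasts. Their part in these proportions was not tested. Lpl gave 0.992 in endothelial cells, 7.45 (5.81 to 9.69) in macrophages and 23.0 (18.2 to 29.3) in fibroblasts, above the endothelial proportion in both. In MI, Fabp5 gave 1.09 in endothelial cells, 166 (113 to 254) in macrophages and 194 (111 to 376) in fibroblasts.

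**Figure D5:**
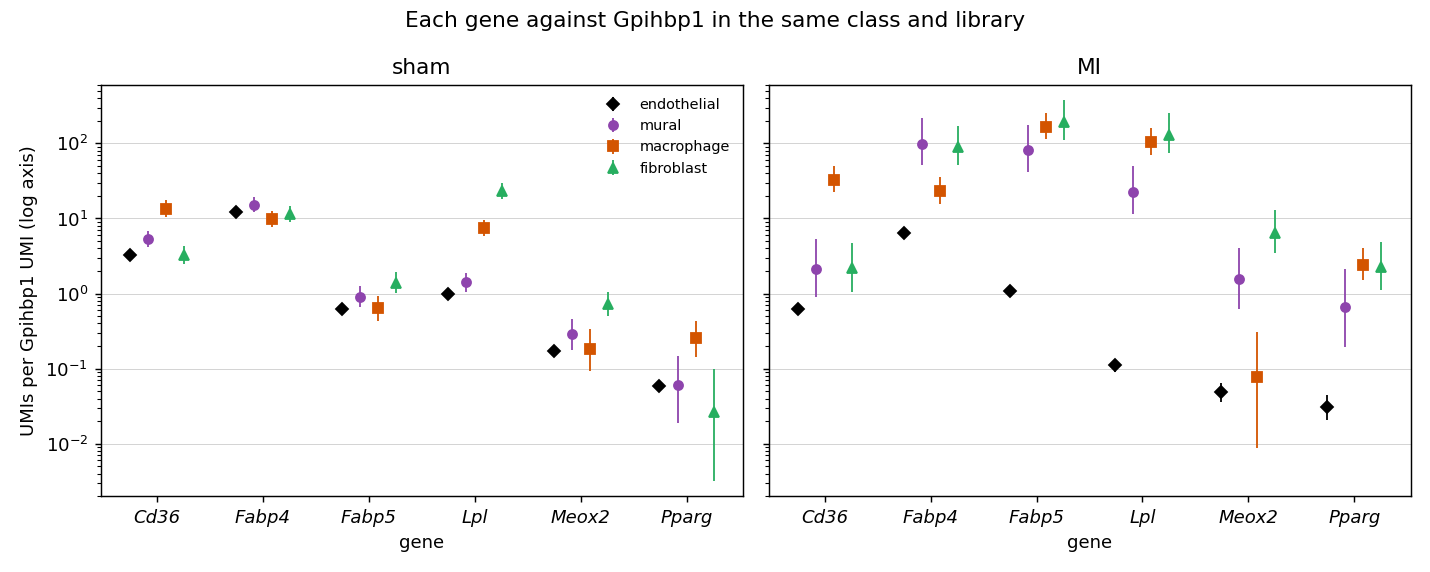
UMIs of 6 genes per Gpihbp1 UMI (log axis) in 4 gated classes, for sham (left) and MI (right), with exact conditional 95% intervals. In sham the fibroblast points for Cd36 and Fabp4 lie at the endothelial points, and the Lpl points of macrophages and fibroblasts lie above them. In MI the points of Fabp5 and Lpl in macrophages, fibroblasts and mural cells lie far above the endothelial points.

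Macrophages were divided after seeing the data by a UMI of at least 2 markers of resident macrophages (Lyve1, Timd4, Folr2 and Cbr2) or of lipid-associated macrophages (Spp1, Gpnmb, Arg1 and Trem2). Lipid-associated cells numbered 1809 in MI and 3 in sham, and resident cells 132 and 854. A cell with 2 markers of each set counted in both. In MI these 2 sets and the 1993 cells of neither add to more than the 3858 macrophages. Fabp5 was 877 CPM (849 to 905) and Lpl 518 CPM (497 to 540) in the lipid-associated MI cells, which held 37.3% and 44.5% of all UMIs of these genes in the library. Resident cells had Fabp5 at 537 CPM (460 to 624) in MI against 17.0 CPM (10.9 to 25.4) in sham, and Lpl at 459 CPM (388 to 540) and 141 CPM (122 to 162). MI cells with neither marker set had Fabp5 at 176 CPM (162 to 191), beside 26.1 CPM (16.2 to 39.9) in sham. Lpl was lower in MI in the cells of neither set, at 142 CPM (129 to 155) against 410 CPM (367 to 457) in sham. The 172 resident, 3713 lipid-associated and 590 other Fabp5 UMIs in MI add to more than the 4305 of all macrophages. The resident values for MI thus include cells of both sets, and resident cells without lipid-associated markers were not read apart. The higher Fabp5 level in MI appeared in cells of neither set, besides the large lipid-associated group.

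In fibroblasts, 7 of the 9 genes had at least 20 UMIs, 5 were at least 2-fold lower and 2 at least 2-fold higher in MI, where 20.3% and 12.8% of 13852 genes were. Lpl lay above the lymphocyte interval in fibroblasts of both libraries. It had 1575 UMIs and 84.8 CPM (80.7 to 89.1) in MI, and 1722 UMIs and 547 CPM (521 to 573) in sham. Its log2 ratio was -2.69 (-2.79 to -2.59), and 4.52% of thinned MI and 22.2% of thinned sham fibroblasts had a UMI. Fabp5 was 125 CPM (120 to 131) in MI against 33.3 CPM (27.3 to 40.4) in sham, for a log2 ratio of 1.91 (1.63 to 2.21). The other higher gene was Pparg with 27 and 2 UMIs, a log2 ratio of 1.19 with an interval from -0.80 to 4.31, so its direction was not fixed by the counts.

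Cd36, Fabp4 and Gpihbp1 in fibroblasts were at or below the lymphocyte level or its interval. Cd36 was 1.40 CPM in MI and 76.8 CPM in sham, below the sham lymphocyte level of 212 CPM, and Fabp4 was 57.5 and 269 CPM beside 57.1 and 495 CPM in lymphocytes. Gpihbp1 was 0.646 and 23.8 CPM. Meox2, which is also expressed in mesenchymal cells, was 4.15 CPM (3.27 to 5.18) in MI against 17.5 CPM (13.2 to 22.7) in sham, and its 0.733 UMIs per Gpihbp1 UMI (0.508 to 1.05) in sham were above the 0.174 of endothelial cells. In MI fibroblasts the 77 Meox2 UMIs stood beside 9.46 at their endothelial marker level, and were 6.42 per Gpihbp1 UMI (3.47 to 13.0) beside 0.0490 in endothelial cells. Fibroblasts held 49.4% of the 156 Meox2 UMIs of the MI library and 5.22% of the 1054 of the sham library.

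In mural cells, 7 of the 9 genes had at least 20 UMIs, with 5 at least 2-fold lower and 1 at least 2-fold higher, where 21.4% and 16.1% of 6277 genes were. The sham mural cells held endothelial marker UMIs at 3200 CPM, 40.4% of the level in endothelial cells with all 12 markers detected, and the MI mural cells at 256 CPM, 3.84% of it with Tie1, Kdr and Robo4 at 0. At 40.4% of the endothelial level, the sham mural cells would hold 415 Cd36, 127 Lpl and 80.6 Fabp5 UMIs, and they held 440, 117 and 75. For Fabp4 and Gpihbp1 the same proportion gives 1579 and 128 UMIs, above the 1260 and 83 held, and for Tcf15 17.6, below the 28 held. Their Cd36 level of 1780 CPM, against 26.3 CPM in MI, was thus close to what the endothelial markers in the same cells gave, and Fabp4 and Gpihbp1 lay under it.

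In the 46 MI and 28 sham mural cells without any endothelial marker UMI, only 4 of the listed genes reached 20 UMIs. Of these, 1 was at least 2-fold lower and 2 at least 2-fold higher in MI. The share of all genes called in these cells is not given here. The counts are therefore not read as a result about the listed genes. Among these cells the log2 ratio was 2.00 for Fabp5, 1.23 for Lpl and 0.34 (-0.24 to 0.98) for Fabp4. The ratios over all mural cells, -2.05 for Fabp4 and -0.77 for Lpl, had the opposite direction. Fabp5 was higher in MI either way, at 1004 CPM (932 to 1080) against 303 CPM (239 to 380) over all mural cells, a log2 ratio of 1.73 (1.38 to 2.09).

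Other genes of fatty acid handling were read from 8 lists in endothelial cells, of which up to 3 genes per direction are named. Of 15 tested genes of fatty acid transport and activation, 5 were at least 2-fold lower and 2 higher, with a median log2 ratio of -0.05. All counts over these lists stand beside 14.0% lower and 10.9% higher among all genes tested in endothelial cells, and a share near these is no result about a list. The caveolar genes Cav1 (-1.69, -1.80 to -1.57), Cav2 (-1.84, -2.05 to -1.63) and Ptrf (-1.74, -1.86 to -1.63), which build the caveolae where Cd36 resides, were among the lower ones. Dbi, the acyl-CoA binding protein, was higher (1.05, 0.88 to 1.23). Of 12 tested genes of lipase maturation, anchoring and inhibition, none was lower and 1 was higher, the heparan sulfate proteoglycan Sdc4 (1.62, 1.11 to 2.14). Hspg2, the basement membrane proteoglycan perlecan, stood at 0.53. These counts are close to the shares over all genes, so no contrast with Lpl and Gpihbp1 is drawn.

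Of 17 tested genes of fatty acid oxidation, none was at least 2-fold lower or higher, with a median log2 ratio of 0.14 and named genes from -0.47 for Hadhb to 0.73 for Eci2. Whether this differs from the uptake genes was not tested. Of 12 tested genes of lipid droplets and lipolysis, 2 were lower, the monoacylglycerol lipase Mgll (-2.58, -2.74 to -2.44) and the hormone-sensitive lipase Lipe (-2.07, -2.71 to -1.50). One was higher, G0s2 (2.49, 2.03 to 2.96), an inhibitor of the triglyceride lipase Pnpla2, which itself stood at -0.74. The water channel Aqp1 (-2.45, -2.61 to -2.30) was 1 of 2 tested channel and glycerol genes and was lower, as Aqp7 was.

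Of 7 tested lipoprotein receptor and sterol efflux genes, 1 was lower, Acvrl1 (-1.22), a receptor kinase that also takes up LDL, and 1 was higher, the sterol exporter Abca1 (1.92, 1.57 to 2.29). Of 8 nuclear receptors and coactivators, 2 were lower, among them the sterol receptor Nr1h2 (-1.38, -1.90 to -0.90), and 1 was higher, Cebpb (1.35, 0.59 to 2.13). Rxra, the partner of Pparg, stood at -0.91 (-1.51 to -0.34). Of 17 regulators of endothelial lipid uptake and capillary identity, 4 were lower and 1 was higher. The flow-responsive factors Klf2 (-2.05) and Klf4 (-2.07) and the BMP target Id1 (-2.10) were lower, and the growth factor Vegfb (1.38, 0.73 to 2.04), known for its effect on endothelial fatty acid uptake, was higher.

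Genes with a pattern like that of Cd36, Meox2 or Lpl were ranked by Pearson correlation of log2(CPM + 10) over 10 points, the 5 gated classes of the 2 libraries, among 10112 genes. The points share their libraries and their depth, so the values are descriptions. The pattern of Cd36 was nearest to that of Nsd1, Herc1, Wasf2, Rfk and Xiap (0.94 to 0.95), above its likeness to Gpihbp1 (0.86) and Fabp4 (0.82). Meox2 was nearest to Ralgapa1, Lims2, Ablim3, Pcdh12 and Lmo7 (0.95 to 0.96), and among the 9 genes to Fabp4 (0.93) and Tcf15 (0.92). Lpl was nearest to Fbxo6, Ifih1, Rtn3, Soga1 and Zscan12 (0.89 to 0.92). Lpl and Fabp5 were less like Cd36, at 0.58 and 0.25.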

How the data were processed

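Single-cell mRNA was measured by Drop-seq in 1 MI and 1 sham library, with 12 PCR cycles in library preparation per the labels' protocols. The deposited values were raw counts of UMIs, with genes in lines and barcodes in columns, made by the authors for each library. Per the submitters' processing notes the build was mm10 and Seurat was used, without role or version. The aligner and counting program were not given in the sources used here. All deposited barcodes had at least 500 genes with a UMI. Barcodes with over 25% mitochondrial UMIs (114 MI, 34 sham) and scrublet doublets (147 or 1.74% in MI, 334 or 5.30% in sham, scanpy 1.11.5) were removed.

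A cell joined the class with the most marker UMIs if it held at least 3 UMIs of at least 2 of that class's markers and at least 3 times the marker UMIs of every other class. Cells under 5 marker UMIs, near that limit, numbered 14 MI and 129 sham endothelial cells. UMIs were summed over each class and given as CPM with exact Poisson intervals, and ratios of MI over sham have exact conditional binomial intervals. Shares of cells have Clopper-Pearson intervals. A count of 0 was set to 3 counts over the class. With lymphocyte CPM subtracted, a remainder under the level of 3 counts was set to that level. A gene was called lower or higher at 20 UMIs or more over both libraries and at least 2-fold. All 9 listed genes are named, with up to 3 genes higher and 3 lower per pathway list in endothelial cells (at least 50 UMIs, interval bound farthest from 0) and the 5 genes most alike for Cd36, Lpl and Meox2; those for Fabp5 are not reported here. The genes, marker lists and pathway lists were chosen with earlier results of these data known. Gene positions are those of the GRCm38 annotation. The steps were tested on simulated data. Other software was scipy 1.17.1 and numpy 2.4.6 under Python 3.11.15, with anndata 0.12.19, scikit-image 0.26.0 and matplotlib 3.10.9.

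Alternatives were 13 planned and 2 added after seeing the data: other gates, thinning, doublets kept, another scaling (median of ratios), other UMI minimums, lymphocyte CPM subtracted, and cells left out by barcode, mitochondrial share, subset or markers of another class.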

Additional observations from a re-analysis of the deposited data

Results flagged for a closer look

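Fabp5 moved in opposite directions between classes. Its log2 ratio of MI over sham in macrophages exceeded that in endothelial cells by 5.15, that in fibroblasts exceeded it by 2.28 and that in mural cells by 2.09. Lpl likewise had a higher summed level in MI in macrophages and a lower one in endothelial cells, fibroblasts and all gated mural cells. Its log2 ratio in macrophages exceeded that in endothelial cells by 4.85, that in fibroblasts by 3.23 and that in mural cells by 1.32. The shares of thinned macrophages with a Lpl UMI, 9.90% in MI and 9.15% in sham, had overlapping intervals. In macrophages of neither marker set Lpl was lower in MI, at 142 CPM against 410 CPM. The mural direction of Lpl was not stable: its log2 ratio was -0.77 over all mural cells, 1.23 without cells holding an endothelial marker UMI, and ran from -1.20 to 2.50 over the alternatives, 10 of 12 with the same sign. With 1 library per group these differences between classes were not tested.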

How the results depend on the processing

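In endothelial cells each of the 9 genes was lower in MI under every alternative run for it, and 7 or 8 were at least 2-fold lower; the median-of-ratios scaling moved log2 ratios by 0.04 there. In macrophages the count of lower genes went from 3 to 6 with a minimum of 1 UMI. That of higher genes went from 1 to 2 with lymphocyte CPM subtracted, where Fabp4 turned to 3.99. Sham Fabp4 was lower in macrophages (315 CPM) than in lymphocytes (495 CPM), so its remainder was set to the floor of 3 counts. The 3.99 is therefore a ratio to the floor and no measured reversal. In fibroblasts the lymphocyte subtraction left 2 lower genes in place of 5 and turned Meox2 to 2.12. This too is a ratio to the floor, since sham Meox2 was 17.5 CPM in fibroblasts and 28.3 CPM, from 2 UMIs, in lymphocytes. The 2 higher fibroblast genes became 1 with the gate on thinned counts, doublets kept, a minimum of 50 UMIs, thinned cells (Pparg at -0.66, from 1 UMI in each library), or without cells holding a marker UMI of another class or of endothelium. In mural cells the 5 lower genes became 3 with the stricter gate, a minimum of 50 UMIs or thinning (Meox2 at 0.10), 0 without cells holding a marker UMI of another class (7 MI and 16 sham cells, where the higher count was 0 too) and 1 without cells holding an endothelial marker UMI (2 higher, Fabp4 at 0.34). The cause was not tested beyond what each alternative removed. The share of all genes called under each alternative is not given here, so these counts are not read as results about the 9 genes. No paired analysis was possible because each group had 1 library. Few UMIs limit the precision for Aqp7, Tcf15, Pparg and Meox2, with 3, 18, 31 and 49 UMIs in the 395 MI endothelial cells.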
